A study of Mus musculus with 9 samples.

Results

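The genes Pax2, Pax8, Lhx1, Cdh16, Epcam and Cdh1 were chosen as markers of mesonephric tubule epithelium, 6 of the 38560 genes in the deposited count table. The data did not bear out that name for all 6. Cdh16 had few reads outside Interstitial. Epcam and Cdh1, and less closely Lhx1, ran close to germ cell markers, by read ratios chosen after their values were seen. Pax8 kept 42.3 to 56% of its Interstitial level in the other sorts. The genes are therefore called the 6 genes below. The 6 were taken by symbol, each symbol matched 1 Ensembl gene, and all 6 had enough reads to be tested. The libraries came from fetal mouse gonads of the Sf1-eGFP strain at 12.5 days post coitum (dpc), in which green fluorescence is driven by regulatory sequence of Sf1 (Nr5a1), a gene of steroidogenic and supporting cells. Gonads with testis cords were dissociated, germ and endothelial cells were to be removed by CD31 staining, and the rest was separated by flow cytometry into populations named Leydig, Interstitial and Sertoli, with 3 libraries each. No gene was deleted and no agent was given in any group. Each of the samples A and B was a pool of about 10 sorting experiments on different days. A mix of A and B was also prepared, which by elimination was taken to be replicate C. Whether the mesonephros was parted from the gonad before dissociation is not stated in the labels, which say only that both were dissected.

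The mesonephros is the transient kidney beside the fetal gonad. Its tubules and the Wolffian duct are epithelia that form from intermediate mesoderm, and in males some of them persist as efferent ducts and epididymis. PAX2 and PAX8 are paired-box transcription factors that act together in forming this epithelium, and LHX1 is a LIM homeodomain factor needed for the duct and for nephron formation. Pax8 is also a marker of the supporting-like cells of the gonad that give rise to the rete testis. CDH16, also called KSP-cadherin, is a cadherin of kidney tubules and their ducts. CDH1 (E-cadherin) and EPCAM are adhesion proteins of epithelia at large, and fetal germ cells are known to carry both.

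The genes lie on 5 chromosomes. On GRCm38, with GENCODE M21 gene models, Pax2 (ENSMUSG00000004231) is on chromosome 19 from 44756045 to 44837871 on the plus strand, Pax8 (ENSMUSG00000026976) on chromosome 2 from 24420560 to 24475599 on the minus strand, and Lhx1 (ENSMUSG00000018698) on chromosome 11 from 84518284 to 84525535 on the minus strand. Both cadherins are on chromosome 8, Cdh16 (ENSMUSG00000031881) from 104601911 to 104624396 on the minus strand and Cdh1 (ENSMUSG00000000303) from 106603351 to 106670246 on the plus strand. Epcam (ENSMUSG00000045394) is on chromosome 17 from 87635979 to 87651129 on the plus strand. Values are for whole genes, all exons together. No source used here gives the strand setting of the counting. Gm13415, an opposite-strand transcript, overlaps the exons of Pax8 by 367 bases. If strand was ignored, reads there could have been set aside as ambiguous and be missing from Pax8. Gm13415 held 0 to 3 reads in each library, which does not measure such a loss. The antisense transcripts beside Pax2, Gm20395 and 1700039E22Rik, had 0 reads in all 9 libraries.

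Promoter windows from RefSeq (GRCm38.p6, 250 bases before to 50 after a start site) were held for 4 of the 6 genes and are shown because these genes were highest in the same population. They are Pax2, chr19:44755502-44755801 on the plus strand, the nearest of 3 windows to the GENCODE start, Pax8, chr2:24475550-24475849 on the minus strand, Lhx1, chr11:84525485-84525784 on the minus strand, and Epcam, chr17:87635729-87636028 on the plus strand. Capitals mark matches to 3 motifs, searched on both strands with no match overlapping another. They are the E2 box CACCTG, the CCAAT box CCAAT and the GC box GGGCGG.
Pax2: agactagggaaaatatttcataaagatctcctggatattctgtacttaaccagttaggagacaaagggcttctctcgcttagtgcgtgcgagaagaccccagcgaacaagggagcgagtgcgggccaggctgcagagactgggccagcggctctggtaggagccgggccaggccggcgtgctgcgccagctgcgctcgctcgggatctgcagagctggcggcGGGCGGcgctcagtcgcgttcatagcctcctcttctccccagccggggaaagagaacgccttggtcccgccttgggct
Pax8: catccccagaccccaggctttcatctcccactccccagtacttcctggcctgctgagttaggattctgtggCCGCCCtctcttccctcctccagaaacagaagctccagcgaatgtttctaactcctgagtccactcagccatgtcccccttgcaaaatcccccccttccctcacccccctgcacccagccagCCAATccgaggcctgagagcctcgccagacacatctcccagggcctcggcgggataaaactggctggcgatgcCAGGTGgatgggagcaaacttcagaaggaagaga
Lhx1: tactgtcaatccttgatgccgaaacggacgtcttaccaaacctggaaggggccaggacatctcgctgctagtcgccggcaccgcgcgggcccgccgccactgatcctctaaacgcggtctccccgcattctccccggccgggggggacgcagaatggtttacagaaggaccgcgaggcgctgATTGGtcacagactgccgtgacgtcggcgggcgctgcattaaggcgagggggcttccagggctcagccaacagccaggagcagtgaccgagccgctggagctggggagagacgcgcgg
Epcam: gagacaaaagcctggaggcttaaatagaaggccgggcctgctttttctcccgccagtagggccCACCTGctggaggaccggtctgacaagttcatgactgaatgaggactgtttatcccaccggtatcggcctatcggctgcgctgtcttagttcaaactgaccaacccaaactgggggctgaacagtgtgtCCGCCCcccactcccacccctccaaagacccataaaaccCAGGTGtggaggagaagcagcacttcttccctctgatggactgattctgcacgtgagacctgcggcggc
Epcam held 2 E2 boxes, at -187 and -19 from its start site, and Pax8 held 1 at 17. The Pax2 window shown held none, but another Pax2 window, with start site 44756906, held an E2 box at -165 and a GC box at -64. The E2 box is a sequence that the Snail and ZEB repressors of epithelial genes can bind. It was found in 20.2% of all 32851 promoter windows, the CCAAT box in 37.4% and the GC box in 35.7%. No motif was common to all 4 windows. A TATA box (TATAAA, 13.6% of windows) was searched as well and was not found in the 4 windows.

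All 6 genes were highest in Interstitial, where each library lay above every Leydig and Sertoli library. The share of all genes that separate in this way is not given here, so this is a description only. For scale, 23.2% of all genes tested were called lower in Leydig than in Interstitial. In Interstitial against Sertoli, 32.7% were called higher in Interstitial. Levels are given as CPM (counts per 1e6 reads in genes) after TMM normalisation, a scaling for library composition. Among the transcription factor genes, Pax2 was at 0.241, 0.346 and 0.271 CPM in Leydig replicates A, B and C, against 2.97, 3.23 and 3.08 in Interstitial and 0.561, 0.44 and 0.323 in Sertoli. Pax8 was at 5.35, 7.06 and 6.36 CPM in Leydig, 10.9, 14.3 and 11 in Interstitial and 5.87, 5.69 and 5.33 in Sertoli. Pax8 had 178 reads or more in every library, whereas Pax2 outside Interstitial rested on 8 to 20 reads per library. Lhx1 was at 0.902, 6.28 and 2.16 CPM in Leydig, 21.3, 32.8 and 24.2 in Interstitial and 1.74, 1.44 and 1.53 in Sertoli. Its Leydig libraries did not hold together, with A below and B and C above all Sertoli libraries.

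Among the adhesion genes, Cdh16 was at 0.391, 0.893 and 0.595 CPM in Leydig, 20.9, 24.1 and 22.1 in Interstitial and 0.112, 0.0587 and 0.162 in Sertoli. The 3 sorts did not overlap for Cdh16, although the Sertoli values stand for only 4, 2 and 6 reads, beside 844, 829 and 887 in Interstitial. Epcam was at 6.77, 19 and 9.58 CPM in Leydig, 75.2, 88.3 and 81.5 in Interstitial and 9.91, 7.66 and 10.6 in Sertoli. Cdh1 was at 2.62, 10.1 and 6.03 CPM in Leydig, 40.5, 49.2 and 41.9 in Interstitial and 4.77, 4.49 and 4.66 in Sertoli. For both, Leydig A lay below all Sertoli libraries and Leydig B above them. In these sorted bulk samples, fewer cells of a type and less RNA per cell cannot be told apart.

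**Figure D1:**
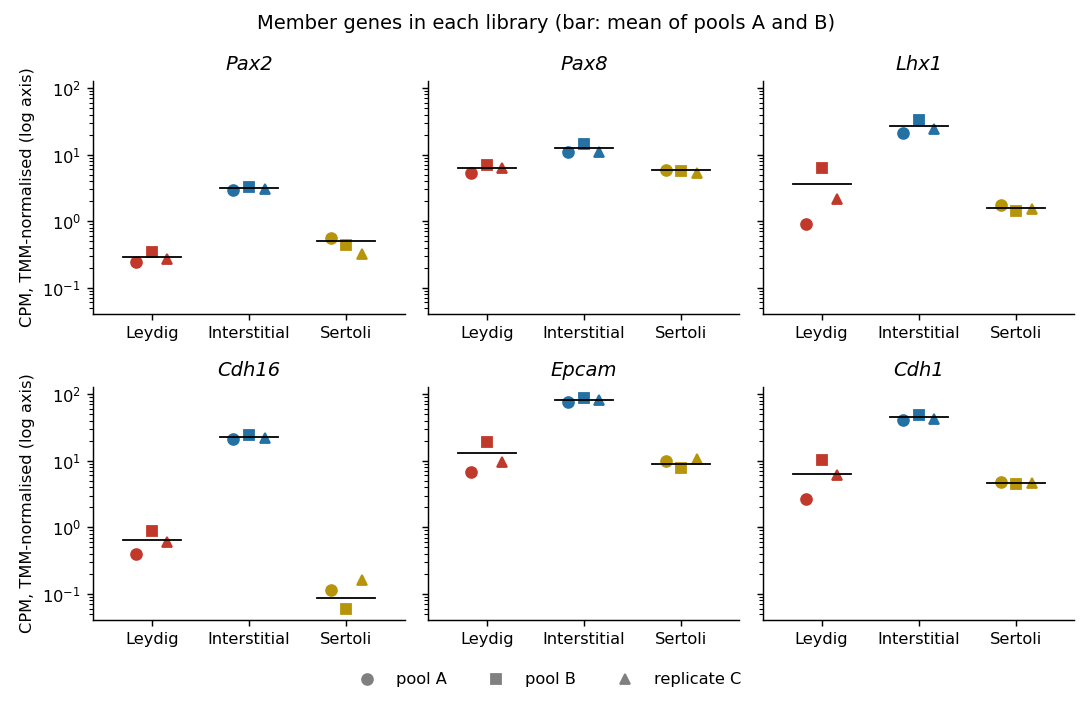
Level of each of the 6 genes in the 9 libraries (CPM, log axis), with Leydig, Interstitial and Sertoli from left to right and marker shapes for replicates A, B and C. Every Interstitial library lies above all others for each gene, and Leydig B lies above Leydig A.

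Scaled to exon length, as reads per kilobase per 1e6 reads (RPKM), the order in Interstitial was Epcam, 37.3 ± 4.22 RPKM, then Cdh1, 9.81 ± 1.34, Lhx1, 6.64 ± 2, Cdh16, 5.93 ± 0.605, Pax8, 2.08 ± 0.404, and Pax2, 0.573 ± 0.0342 (SD, n = 2, replicates A and B). Lhx1 and Cdh16 were neighbours that did not differ beyond their spread. In Leydig the order was Epcam at 5.86 ± 3.93 RPKM, Cdh1 at 1.39 ± 1.15, Pax8 at 1.02 ± 0.199, Lhx1 at 0.882 ± 0.934, Cdh16 at 0.169 ± 0.0937 and Pax2 at 0.0542 ± 0.0137. Cdh1, Pax8 and Lhx1 could not be ordered there, given their spread. In Sertoli, Epcam was at 4 ± 0.724 RPKM, Cdh1 at 1.01 ± 0.0435, Pax8 at 0.953 ± 0.0201, Lhx1 at 0.39 ± 0.0525, Pax2 at 0.0926 ± 0.0158 and Cdh16 at 0.0225 ± 0.00999. Epcam was first in each sort, and Cdh16 was last in Sertoli, below Pax2.

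Between Leydig and Interstitial, all 6 genes were lower in Leydig. Across the 18048 genes tested, 23.2% were called lower in Leydig and 45.1% in either direction. The tests compared pools A and B of each population with edgeR's quasi-likelihood test, and genes were called at a Benjamini-Hochberg adjusted p of 0.05. Cdh16, the tubule cadherin, differed most, at 0.642 ± 0.355 CPM in Leydig and 22.5 ± 2.29 in Interstitial (SD, n = 2), a log2 difference of -5.1 ± 0.26 (SE; edgeR adjusted p 3.85e-06), or 34.3-fold lower. Pax2 averaged 0.293 ± 0.0744 CPM in Leydig and 3.1 ± 0.185 in Interstitial and so was 10.3-fold lower (-3.37 ± 0.29, edgeR adjusted p 6.05e-05). Pax8 had the smallest difference of the 6, 2.01-fold lower at 6.21 ± 1.21 CPM in Leydig against 12.6 ± 2.45 in Interstitial (-1 ± 0.18, edgeR adjusted p 0.00225).

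The other 3 genes were lower in Leydig by similar amounts but with a wide spread among the Leydig pools. Lhx1 averaged 3.59 ± 3.8 CPM in Leydig against 27.1 ± 8.13 CPM in Interstitial (log2 difference -2.88 ± 0.57, edgeR adjusted p 0.00355). Cdh1 averaged 6.35 ± 5.28 CPM in Leydig against 44.9 ± 6.12 CPM in Interstitial (-2.8 ± 0.42, edgeR adjusted p 0.000994), and Epcam 12.9 ± 8.62 CPM in Leydig against 81.8 ± 9.25 CPM in Interstitial (-2.65 ± 0.36, edgeR adjusted p 0.000566). The size of these differences rests on the Leydig pool used. Without Leydig replicate A the log2 differences were -2.08 for Lhx1, -2.13 for Cdh1, -2.09 for Epcam and -4.63 for Cdh16. Without Leydig replicate B they were -4.89 for Lhx1, -4.09 for Cdh1, -3.59 for Epcam and -5.83 for Cdh16, and the calls held in both cases. The median log2 difference of the 6 genes was -2.84, beside 0.01 over all genes tested. In the authors' deposited table of this contrast, which lists 1823 genes, 5 of the 6 appear with log2 fold changes of -3.4 for Pax2, -3.46 for Lhx1, -5.21 for Cdh16, -2.94 for Epcam and -3.01 for Cdh1, and Pax8 is not listed.

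Between Interstitial and Sertoli, all 6 genes were higher in Interstitial, where 32.7% of all genes tested were called higher (61.8% in either direction). Cdh16 was again first, at 22.5 ± 2.29 CPM in Interstitial and 0.0855 ± 0.0379 in Sertoli (SD, n = 2; log2 difference 7.92 ± 0.36, edgeR adjusted p 3.01e-07). With only 6 Sertoli reads in pools A and B, its ratio was 260, with a 95% conditional binomial interval of 119 to 709 that covers counting error alone. Lhx1 was 16.3-fold higher (27.1 ± 8.13 against 1.59 ± 0.214 CPM; 4.03 ± 0.63, edgeR adjusted p 0.000545), Cdh1 9.3-fold (44.9 ± 6.12 against 4.63 ± 0.199 CPM; 3.22 ± 0.44, edgeR adjusted p 0.00025) and Epcam 8.94-fold (81.8 ± 9.25 against 8.78 ± 1.59 CPM; 3.16 ± 0.37, edgeR adjusted p 0.000103). Pax2 was 5.9-fold higher (3.1 ± 0.185 against 0.501 ± 0.0856 CPM; 2.56 ± 0.27, edgeR adjusted p 4.91e-05), and Pax8 2.1-fold (12.6 ± 2.45 against 5.78 ± 0.122 CPM; 1.07 ± 0.18, edgeR adjusted p 0.000876). The median log2 difference was 3.19, beside 0.043 over all genes. Both contrasts with Interstitial use the same Interstitial libraries. The authors' deposited table of this contrast, with 3512 genes, lists all 6, with log2 fold changes from 1.1 for Pax8 to 7.58 for Cdh16.

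Between Leydig and Sertoli, Cdh16 was higher in Leydig and the other 5 genes were not called. Of all genes tested, 16.9% were called higher in Leydig and 20.6% lower, 37.5% in all. Cdh16 averaged 0.642 ± 0.355 CPM in Leydig against 0.0855 ± 0.0379 in Sertoli (SD, n = 2), a log2 difference of 2.82 ± 0.58 (edgeR adjusted p 0.0049). On 44 Leydig and 6 Sertoli reads the ratio was 7.52, with a 95% interval of 3.19 to 21.6 from counting error alone. It is also the gene of the 6 that the authors' deposited table of this contrast lists, at 2.37. Pax2 differed by -0.8 ± 0.36 (edgeR adjusted p 0.119), Pax8 by 0.06 ± 0.19 (0.825), Lhx1 by 1.14 ± 0.7 (0.241), Epcam by 0.51 ± 0.38 (0.338) and Cdh1 by 0.42 ± 0.47 (0.531). The median was 0.46, beside -0.005 over all genes.

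For Lhx1, Epcam and Cdh1 the direction between Leydig and Sertoli depended on the Leydig pool. Without Leydig replicate A, all 3 were called higher in Leydig, Lhx1 by 1.94 ± 0.29, Epcam by 1.07 ± 0.15 and Cdh1 by 1.08 ± 0.16 on the log2 scale (edgeR adjusted p 0.000391, 0.000309 and 0.00031). Without Leydig replicate B, Cdh1 was called lower in Leydig (-0.82 ± 0.2, edgeR adjusted p 0.00839), and Lhx1 (-0.81) and Epcam (-0.37) were not called. Cdh16 was called higher in Leydig either way, by 3.28 without Leydig replicate A and 2.14 without Leydig replicate B. In these fits the lone Leydig pool is assumed to vary like the other groups.

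**Figure D2:**
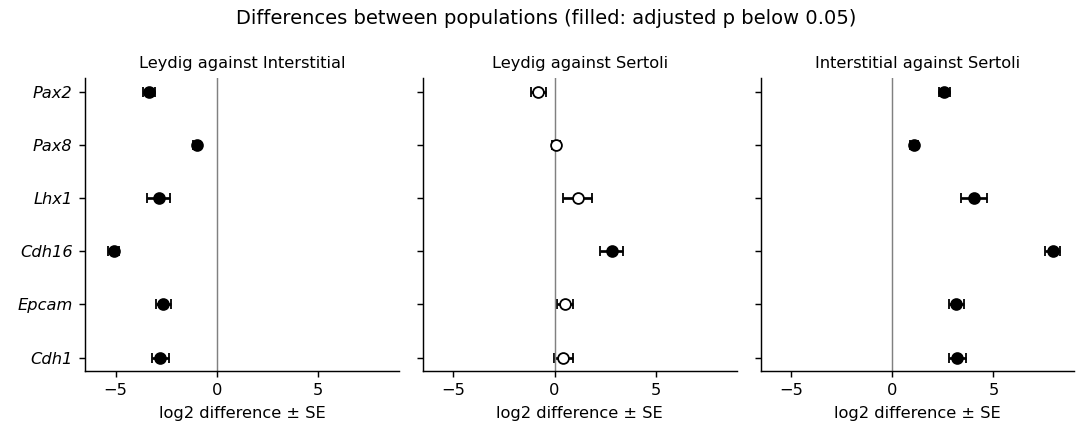
Log2 difference of each of the 6 genes in the 3 comparisons, with bars of 1 SE from the edgeR fit of pools A and B. All 6 lie below 0 in Leydig against Interstitial and above 0 in Interstitial against Sertoli, while in Leydig against Sertoli only Cdh16, at 2.82, was called.

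The 3 libraries of a sort can be set against how they were made. In Leydig, pool B over pool A was 6.96 for Lhx1, 3.85 for Cdh1, 2.8 for Epcam, 2.28 for Cdh16, 1.44 for Pax2 and 1.32 for Pax8. Over all genes measured in Leydig, 3.27% were at least 2-fold higher in B, and the 99th percentile of the ratio was 3.45, which Lhx1 and Cdh1 exceeded. In Interstitial the ratio of the 6 genes ran from 1.09 to 1.54, and in Sertoli from 0.773 to 0.971 for the 5 genes with more than 3 reads. Replicate C lay between A and B for all 6 genes in Leydig and all 6 in Interstitial, but in Sertoli for Lhx1 and Cdh1 alone.

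Markers of some other cells also differed between the pools, but not all in the direction of the 6 genes. Of the 12 germ cell markers with enough reads, the median of Leydig B over A was 3.78 (0.872 to 7.01), and for erythroid markers it was 3.57. It was 1.83 for macrophage markers, 1.15 for endothelial, 0.939 for mesothelial and coelomic and 0.57 for fetal Leydig markers. In Sertoli, B over A had a median of 0.826 for the 5 of the 6 genes with enough reads, 0.672 for germ cell, 0.798 for fetal Leydig, 0.96 for endothelial, 1.05 for macrophage, 1.07 for mesothelial and coelomic and 2.52 for erythroid markers. The part of these cells in the pool difference was not tested.

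**Figure D3:**
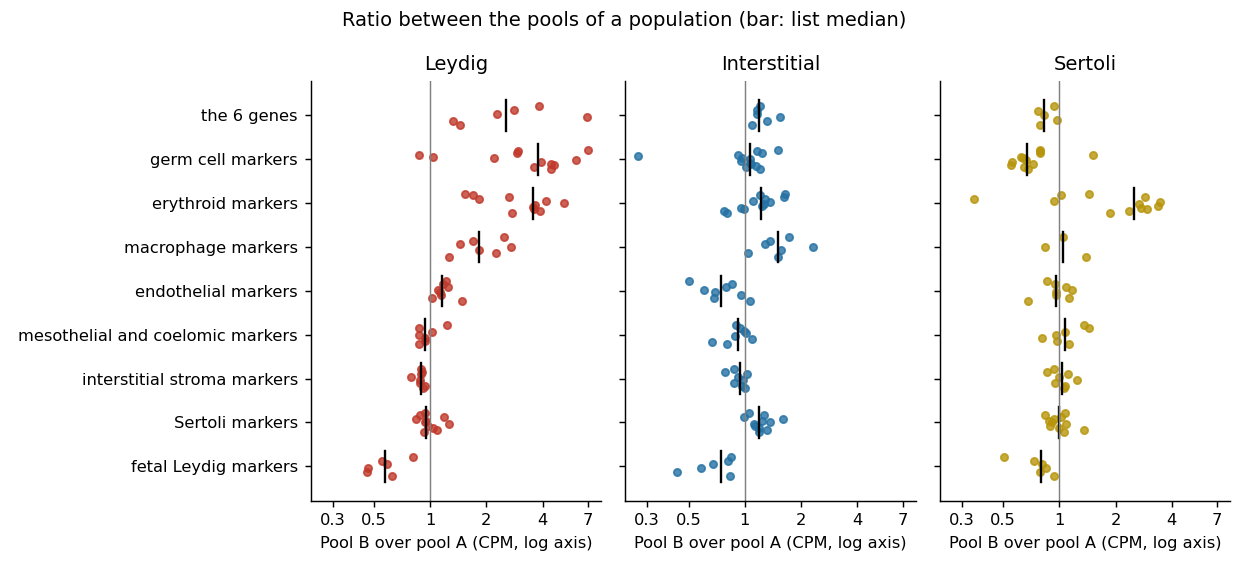
Ratio of pool B to pool A (log axis) in Leydig, Interstitial and Sertoli for each of the 6 genes and each gene of the marker lists, with a line at equal levels. In Leydig the 6 genes, germ cell and erythroid markers lie mostly to the right of it, with medians of 2.54, 3.78 and 3.57.

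As a share of the Interstitial mean, the 6 genes differed widely. Cdh16 reached 1.74 to 3.97% in the Leydig libraries and 0.261 to 0.718% in the Sertoli libraries. Pax8 reached 42.4 to 56% in Leydig and 42.3 to 46.5% in Sertoli, the highest shares of the 6. Pax2 was at 7.76 to 11.2% in Leydig and 10.4 to 18.1% in Sertoli. Lhx1 (3.34 to 23.2% in Leydig, 5.32 to 6.43% in Sertoli), Epcam (8.28 to 23.2% in Leydig, 9.36 to 12.9% in Sertoli) and Cdh1 (5.83 to 22.5% in Leydig, 10 to 10.6% in Sertoli) lay between Cdh16 and Pax8.

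Germ cell markers had a median share of 7.36, 26.7 and 12.2% in Leydig A, B and C and of 12.1, 7.88 and 10.6% in Sertoli A, B and C, close to Epcam and Cdh1. All 13 germ cell markers had reads in every library, with summed levels of 70.96 to 281.2 CPM in Leydig, 1013 to 1148 in Interstitial and 81.57 to 125 in Sertoli, in spite of the CD31 sort. Of the 12 tested, 11 were lower in Leydig than in Interstitial, 11 were higher in Interstitial than in Sertoli and 0 were called between Leydig and Sertoli. The germ cell gene Dppa5a averaged 28 ± 23.5 CPM in Leydig, 159 ± 7.53 in Interstitial and 17.4 ± 6.96 in Sertoli (SD, n = 2). Erythroid markers, with 12 of 12 detected in every library, summed to 164.5 to 587.7 CPM in Leydig, 14060 to 14780 in Interstitial and 165.7 to 471.9 in Sertoli. Macrophage markers summed to 11.37 to 20.81 CPM in Leydig, 45.28 to 71.39 in Interstitial and 1.179 to 1.849 in Sertoli, where Ptprc, 1 of the 7, was at 0 in replicate A. Endothelial markers had median shares of 106 to 119% in Leydig and 15.2 to 17.6% in Sertoli, and mesothelial and coelomic markers 56.2 to 59.9% in Leydig and 6.01 to 9.81% in Sertoli. The part of other cell types in the Interstitial level of the 6 genes was not tested.

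**Figure D4:**
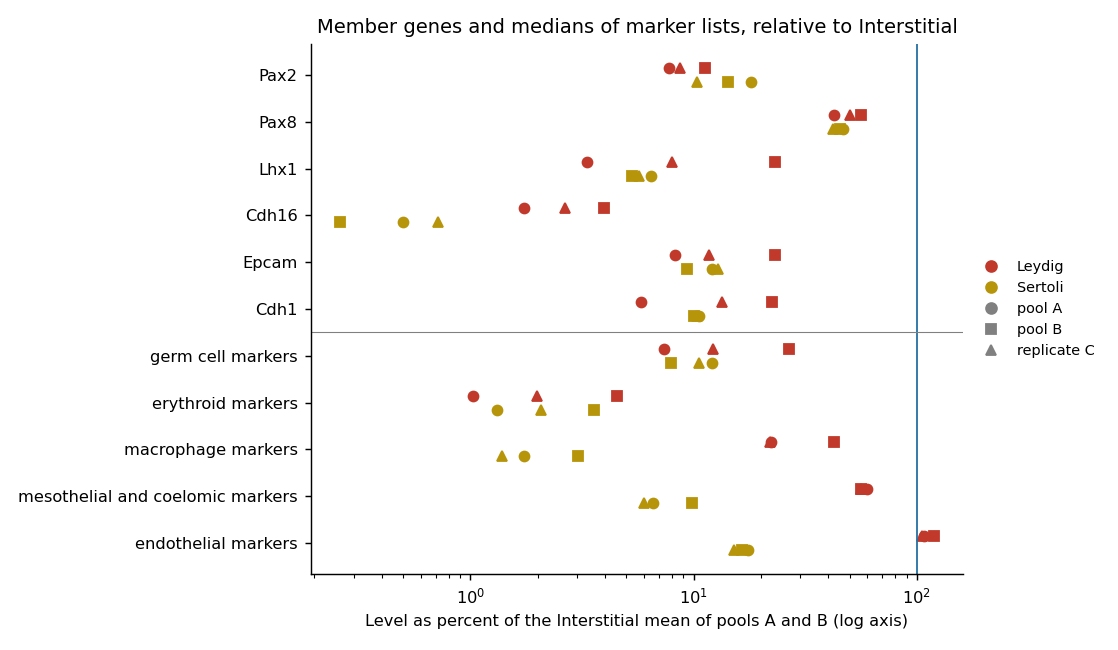
Level of each of the 6 genes, and the median of each marker list, in the Leydig and Sertoli libraries as a percent of the Interstitial mean (log axis), with marker shapes for replicates A, B and C and a line at 100. Cdh16 lies lowest of the 6, Pax8 at 42.3 to 56%, and Epcam and Cdh1 lie close to the germ cell markers.

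Ratios of reads within a library do not depend on its scaling, and those given here were chosen after their values were seen. The share of all genes that keep as close to the germ cell list is not given here, so these are a description only. Epcam had 1.59 to 2.59 reads per Cdh1 read over the 9 libraries, a 1.63-fold range. Epcam also had 95.4, 67.4 and 75.3 reads per 1000 reads of the germ cell list in Leydig A, B and C, 74.2, 76.9 and 72.4 in Interstitial and 79.2, 93.9 and 94.2 in Sertoli, a 1.42-fold range. The corresponding range was 1.53-fold for Cdh1 and 2.25-fold for Lhx1. It was 4.39-fold for Pax2 and 7.72-fold for Pax8.

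Cdh16 was apart from these. Its reads per 1000 germ cell list reads ran from 0.719 to 21, a 29.2-fold range. Epcam had 17.3, 21.2 and 16.1 reads per Cdh16 read in Leydig, 3.6, 3.66 and 3.69 in Interstitial and 88.2, 130 and 65.5 in Sertoli. Against Pkhd1, the gene of a large membrane protein of tubule cells, the ratio of Cdh16 was 0.812, 0.721 and 1.22 in Leydig, 1.67, 1.24 and 1.5 in Interstitial and 0.444, 0.5 and 0.75 in Sertoli. In Sertoli these are 4, 2 and 6 reads of Cdh16 over 9, 4 and 8 of Pkhd1, too few to fix a ratio. As a check of the label over the 6 genes, Cdh16 had few reads outside Interstitial, and Epcam and Cdh1, and less closely Lhx1, kept to the germ cell list. Pax8 had 178 to 245 reads in each Leydig library and 194 to 209 in each Sertoli library, and Pax2 had 8 to 20 reads per library there.

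**Figure D5:**
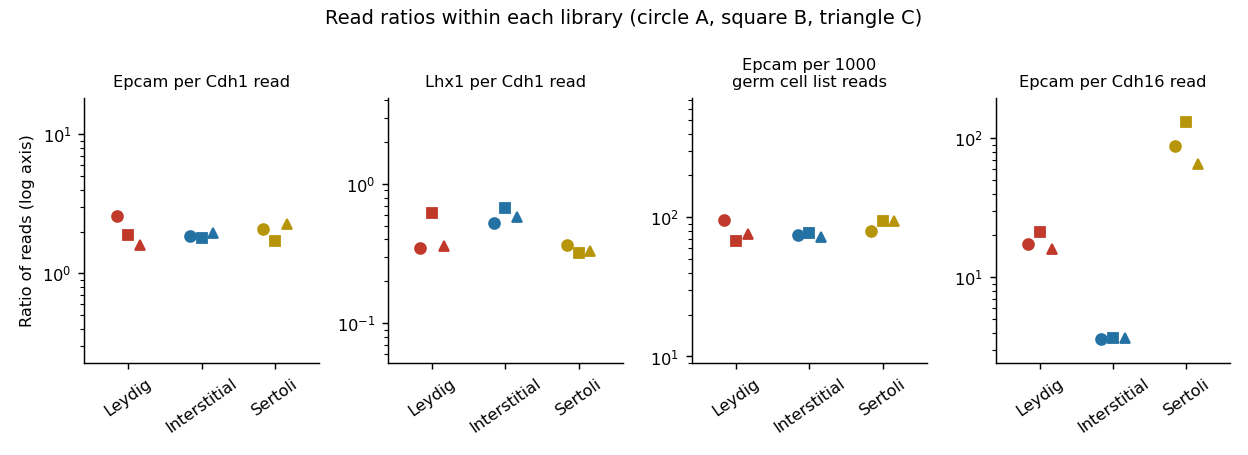
Ratios of reads within each of the 9 libraries (log axis), for Epcam and Lhx1 per Cdh1 read, Epcam per 1000 germ cell list reads and Epcam per Cdh16 read, with circles, squares and triangles for replicates A, B and C. Epcam per 1000 germ cell list reads stays within a 1.42-fold range, and Epcam per Cdh16 read ranges from 3.6 in Interstitial to 130 in Sertoli.

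The genes whose levels ran most like those of the 6 were ranked by Pearson r of log2 CPM over 9 libraries, among 15203 genes, a description in which the points share sorts and pools. With the mean of the 6, Irgm1 (r = 0.999) and Shmt1 (0.998) came first, followed by Ddx58, Cdca5, Nup210, Rab6b, Atp10a, Tex10, Tex14, a gene of germ cell bridges, and Tsr1. Most like Epcam were Map7d2 (0.9991), Sohlh2 (0.9989), a germ cell transcription factor gene, and Rimbp2 (0.9984). Most like Cdh1 were Pramef12 (0.9985), Zfp750 (0.9971) and Mtmr7 (0.9969). Among those most like Lhx1 were Sox2 (0.9986), a gene of pluripotent and fetal germ cells, and Mtmr7 (0.9978). Sox2 averaged 7.39 CPM in Leydig, 56.2 in Interstitial and 4.5 in Sertoli, and Sohlh2 averaged 3.77 CPM in Leydig, 33 in Interstitial and 2.85 in Sertoli.

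For the remaining 3 the nearest genes were others. Among those most like Pax2 was Alas2 (0.9959), a heme synthesis gene of erythroid cells. For Pax8 they were Cherp (0.9973), Duxbl2 (0.9955) and Tgif2 (0.9941), and for Cdh16 Nhp2 (0.9981), Kdm1b (0.9979) and Six4 (0.9978). Among the 6 genes themselves, r ran from 0.897 for Pax2 with Cdh16 to 0.994 for Lhx1 with Cdh1.

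Of the wider set of genes of mesonephric and renal tubules, 69 were tested of 78 listed in 4 groups. In Leydig against Interstitial, 47 were lower and 8 higher in Leydig, with a median log2 difference of -1.75. In Interstitial against Sertoli, 49 were higher and 14 lower in Interstitial, with a median of 1.67. In Leydig against Sertoli, 14 were higher and 19 lower in Leydig, with a median of -0.14. Beside the background shares given above, 22% of all genes were called higher in Leydig than in Interstitial and 29.1% lower in Interstitial than in Sertoli.

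Among 16 tested regulators, 13 were lower in Leydig than in Interstitial and 1 was higher (23.2% and 22% of all genes tested). In Interstitial against Sertoli, 13 were higher in Interstitial and 1 was lower (32.7% and 29.1% of all genes). In Leydig against Sertoli 4 were higher and 1 lower (16.9% and 20.6% of all genes). Gata3, a regulator of the Wolffian duct, averaged 0.838 ± 0.0786 CPM in Leydig, 2.87 ± 0.424 in Interstitial and 0.218 ± 0.149 in Sertoli (SD, n = 2), and was also higher in Leydig than in Sertoli (1.9 ± 0.44, edgeR adjusted p 0.00907). Sall1, a zinc finger gene of kidney development, averaged 1.41 ± 1.1 CPM in Leydig, 9.44 ± 0.684 in Interstitial and 1.11 ± 0.614 in Sertoli.

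Other regulators followed less closely or not at all. Emx2, needed for the urogenital ridge as a whole, was at 41.6 ± 1.89 CPM in Leydig, 40.3 ± 1.28 in Interstitial and 19.7 ± 0.217 in Sertoli, and was not called between Leydig and Interstitial (0.06 ± 0.07, edgeR adjusted p 0.555). Eya1 was the 1 regulator higher in Leydig than in Interstitial (1 ± 0.12, edgeR adjusted p 0.000257). Mecom was lower in Leydig than in Interstitial, but by a small margin (-0.56 ± 0.17, edgeR adjusted p 0.0251). It was higher in Leydig than in Sertoli (1.85 ± 0.19, edgeR adjusted p 0.000109) and in Interstitial than in Sertoli (2.41 ± 0.19, edgeR adjusted p 9.47e-06).

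Of 14 tested signalling genes, 9 were lower and 1 higher in Leydig than in Interstitial (23.2% and 22% of all genes tested). In Interstitial against Sertoli, 10 were higher and 3 lower in Interstitial (32.7% and 29.1% of all genes). In Leydig against Sertoli 2 were higher and 4 lower (16.9% and 20.6% of all genes). Wnt9b, the signal that the duct sends to induce tubules, had 2, 2 and 2 reads in Leydig, 137, 141 and 134 in Interstitial and 3, 1 and 3 in Sertoli (fitted log2 difference -5.89 ± 0.4 for Leydig against Interstitial, edgeR adjusted p 1.5e-05). Gdnf, the ligand that draws out the ureteric bud and in the testis is made by Sertoli cells, ran the other way, at 39.9 ± 0.442 CPM in Leydig, 8.2 ± 0.826 in Interstitial and 77 ± 6.5 in Sertoli. The FGF receptor gene Fgfr2 averaged 82.1 CPM in Leydig, 97.2 in Interstitial and 49.1 in Sertoli, and the FGF target gene Etv5 averaged 107 CPM in Leydig, 163 in Interstitial and 181 in Sertoli. Spry1, an inhibitor of receptor tyrosine kinase signalling, and the BMP ligand gene Bmp7 were not called between Leydig and Interstitial.

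Of 28 adhesion and keratin genes, 20 were lower and 4 higher in Leydig than in Interstitial (23.2% and 22% of all genes tested). In Interstitial against Sertoli, 19 were higher and 7 lower in Interstitial (32.7% and 29.1% of all genes). In Leydig against Sertoli 4 were higher and 11 lower (16.9% and 20.6% of all genes). The 5 named for their high mean CPM were all highest in Sertoli. Dsp, the gene of the desmosome protein desmoplakin, was at 85.2 ± 3.8 CPM in Leydig, 50.4 ± 5.07 in Interstitial and 224 ± 5.79 in Sertoli. Spint2, a protease inhibitor gene of epithelia, was at 38.8 ± 1.15 CPM in Leydig, 19.8 ± 1.21 in Interstitial and 135 ± 24.4 in Sertoli, and the others were the tight junction genes Cgn and Lsr and the keratin gene Krt8.

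Of 11 tested transport genes, 5 were lower and 2 higher in Leydig than in Interstitial (23.2% and 22% of all genes tested). In Interstitial against Sertoli, 7 were higher and 3 lower in Interstitial (32.7% and 29.1% of all genes). In Leydig against Sertoli 4 were higher and 3 lower (16.9% and 20.6% of all genes). Lrp2, the gene of the endocytic receptor megalin of proximal tubules, was at 12.9 ± 0.4 CPM in Leydig, 58.3 ± 13 in Interstitial and 2.24 ± 0.233 in Sertoli, called in all 3 contrasts (Leydig against Sertoli 2.48 ± 0.19, edgeR adjusted p 1.68e-05). Pkhd1 was at 0.86 ± 0.536 CPM in Leydig, 16 ± 4.97 in Interstitial and 0.185 ± 0.0956 in Sertoli, and like Cdh16 it was called higher in Leydig than in Sertoli (2.15 ± 0.65, edgeR adjusted p 0.029). Clu and Spp1, secreted protein genes of several epithelia, were highest in Sertoli. Dab2, which encodes an endocytic adaptor, was not called between Leydig and Interstitial.

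Reads in genes ran from 33.12 to 39.24 M per library (M, 1e6), so that 3 reads, the limit that a count of 0 allows, correspond to 0.0742 to 0.0902 CPM, counting error only. Cdh16 in Sertoli B, at 0.0587 CPM, is under that limit. Of the 41 pairs of gene and library with at least 40 reads, 3 differed between the 4 lanes by a chi-square test at an unadjusted p under 0.05. As a check of the sorts, 11 of 11 Sertoli markers were lower in Leydig than in Sertoli, and 6 of 6 markers of fetal Leydig cells were called higher in Leydig than in Interstitial, while 0 of the 6 were called between Leydig and Sertoli. However, 10 of the 11 Sertoli markers were also called higher in Leydig than in Interstitial, and 1 was called lower. The Sertoli marker Amh averaged 443 ± 24.7 CPM in Leydig, 59.6 ± 7.35 in Interstitial and 1590 ± 63.5 in Sertoli (SD, n = 2).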

How the data were processed

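Total RNA from 9 libraries (3 sorted populations, 100 ng each) was made into stranded, ribosome-depleted libraries, per the labels' protocols. The deposited counts are raw reads for each gene in each lane. Tools named in the submitters' processing notes are TopHat2 2.0.6, HTSeq and limma, and the build is mm10. The annotation release is not given in the sources used here. HTSeq's no-feature lines (32.23 to 38.52% of reads) were left out. Their share was highest in Leydig B at 38.52%, beside 32.32% in Leydig A and 33.29% in Leydig C, and next highest in Sertoli B at 36%. The authors' deposited tables hold log2 fold changes, scores (moderated t, log odds) and p-values, per the file headers.

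Counts were summed over lanes and fitted with edgeR 4.0.16 (glmQLFit, glmQLFTest, TMM, filterByExpr) in R 4.3.3, on replicates A and B of the 3 populations (3 residual degrees of freedom), with Benjamini-Hochberg adjustment over 18048 genes. An adjusted p in the text comes from this test and fit, except where a left-out replicate or another setting is named. Those fits keep the same test and are adjusted over the genes that pass their own filter. An SE is the log2 difference over the root of F. Replicate C, taken as the mix, is displayed but not tested. Each p-value sets a difference between populations against the spread between pools, estimated over the 3 populations together. Spread between animals or litters is not covered. The code was tested on simulated data. The 6 genes and all lists were chosen with earlier results of these data known. Besides the 6, the genes named are up to 5 per tubule list by highest mean CPM, plus Wnt9b and Gata3 for their roles (Emx2 is named by both parts of this rule), markers of other cells, and the genes most alike. Some genes that this rule names are not reported here. DESeq2 1.42.0 and limma voom (limma 3.58.1) were among 16 alternatives.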

Additional observations from a re-analysis of the deposited data

How the results depend on the processing

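All 6 genes were called in Leydig against Interstitial and in Interstitial against Sertoli under each of the 16 alternatives (other scaling, filters, tools, lanes, all 9 libraries, a block, and leaving out each pool). In Leydig against Sertoli, 1 gene was called by the fit reported, 3 with no low-count filter (Lhx1 at 1.19 and Epcam at 0.56 beside Cdh16), and 1 to 4 when a pool was left out. Cdh1 was at 1.08 without Leydig replicate A and turned to -0.82 without Leydig replicate B. The cause was not tested. Tubule list genes called ranged from 48 to 61 (55 as reported) in Leydig against Interstitial, 25 to 37 (33) in Leydig against Sertoli and 56 to 66 (63) in Interstitial against Sertoli. Scaling by library size alone shifted the median of all genes by 0.102 in Leydig against Sertoli and 0.168 in Interstitial against Sertoli. It moved the share of calls that were higher to 58.8% (45.1% as reported) in Leydig against Sertoli, 65.2% (52.9%) in Interstitial against Sertoli and 40.2% (48.7%) in Leydig against Interstitial, where the median shifted by -0.064, without changing a call among the 6 genes.

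The letters A and B were not taken as pairing the samples. Deviations of same-lettered pools correlated at 0.247 between Leydig and Interstitial, 0.016 between Leydig and Sertoli and 0.099 between Interstitial and Sertoli. These values do not show that the pools were unpaired. Some genes still shared a direction. Fetal Leydig markers had a median B over A of 0.57 in Leydig, 0.743 in Interstitial and 0.798 in Sertoli. For the 6 genes the medians were 2.54, 1.19 and 0.826, the last from the 5 with enough reads. With the replicate letter as a block, 6, 1 and 6 of the 6 genes were called in Leydig against Interstitial, Leydig against Sertoli and Interstitial against Sertoli, and 9364, 7839 and 12013 of all genes (8146, 6762 and 11155 without it).

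With 2 pools per population, a spread such as that of Lhx1 in Leydig limits what can be called, and Cdh16 in Sertoli rests on 2 to 6 reads per library.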

Other observations

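Some tubule genes outside the rule for naming, picked here after their values were seen, had hardly any reads outside Interstitial. Other genes of the same 4 lists ran otherwise, and 14 of the 69 tested were called lower in Interstitial than in Sertoli. The share of all genes with so few reads outside Interstitial is not given here. The nuclear receptor gene Hnf4a, a regulator of proximal tubule genes, had 4, 1 and 1 reads in Leydig, 124, 192 and 131 in Interstitial and 1, 5 and 2 in Sertoli. The transcription factor gene Sim1 had 1, 2 and 1 reads in Leydig, 81, 68 and 72 in Interstitial and 1, 0 and 1 in Sertoli. Slc34a1, the phosphate transporter gene of the proximal tubule, had 0, 1 and 0 reads in Leydig, 82, 92 and 76 in Interstitial and 3, 0 and 0 in Sertoli. The tight junction gene Cldn8 had 0, 5 and 0 reads in Leydig, 116, 78 and 125 in Interstitial and 0 in all 3 Sertoli libraries.

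The splicing regulator gene Esrp1, by contrast, ran like Epcam and Cdh1, at 3.79, 13.98 and 6.303 CPM in Leydig A, B and C, 51.59, 61.41 and 54.97 in Interstitial and 7.549, 5.018 and 7.377 in Sertoli. The related gene Esrp2 was highest in Sertoli, at 6.21 ± 1.08 CPM in Leydig, 5.27 ± 0.528 in Interstitial and 14.6 ± 1.57 in Sertoli (SD, n = 2). The receptor gene Ret, through which GDNF signals in the duct, was at 0.722, 0.951 and 1.055 CPM in Leydig, 6.903, 4.744 and 6.666 in Interstitial and 1.207, 0.9976 and 0.8616 in Sertoli.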
